A study of Mus musculus with 25 samples.

Results

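The comparison of Pam knockout with wild-type mice was restricted to atrial libraries rich in Bmp10, the gene of a growth factor made by right atrial myocytes. The libraries were chosen by their own Bmp10 value, at least 1000 CPM (reads of a gene scaled to a fixed total of reads counted to genes in each library), which held for 15 of 25 libraries. These were 7 wild-type libraries, of 4 males (WM4, WM5, WM6, WM7) and 3 females (WF8, WF9, WF11), and 8 knockout libraries, of 4 males (KM13, KM03, KM05, KM07) and 4 females (KF15, KF17, KF20, KF21). In these codes W or K stands for the genotype and M or F for the sex. The libraries were of polyadenylated RNA from individual atria of untreated mice aged 60 to 90 days, and the genotype is given as wildtype or knockout with the series described as comparing basal with reduced PAM. The allele, the strain, the side of the atrium and any restriction of the deletion to a cell type are not given in the sources used here. Nor do the labels say which libraries came from the same animal, so the p-values measure the spread between libraries, part of which may be technical.

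Pam encodes peptidylglycine alpha-amidating monooxygenase, a copper-dependent enzyme that turns glycine-extended peptides into amidated ones. The enzyme needs ascorbate and works in the lumen of the secretory pathway. In atrial myocytes it is a major membrane protein of the granules that store pro-atrial natriuretic peptide, which is itself not amidated. The right atrium holds the sinoatrial node, and its trabeculated muscle is the main adult source of Bmp10.

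Bmp10 chose the libraries, so its values are a description. Among the members it ran from 1999 CPM in WM4 to 7597 CPM in KM05, and the nearest libraries outside were WF12 at 669 CPM and KF18 at 444 CPM. Hamp, the gene of the iron hormone hepcidin and a transcript of the right atrium, was not used by the choice. It was at 57.7 to 183 CPM in the members and at 1.34 to 26.3 CPM in the 10 libraries outside, with no overlap. The floor of 3 reads is 0.370 CPM in the deepest member and 0.937 CPM in the shallowest. KF17 carries a name that begins with LA, yet had 4811 CPM of Bmp10 and 112 CPM of Hamp. KF18, outside the members although its name begins with RA, had 16.5 CPM of Hamp. Leaving out KF17 kept the same count of 2 called genes in the main comparison.

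**Figure D1:**
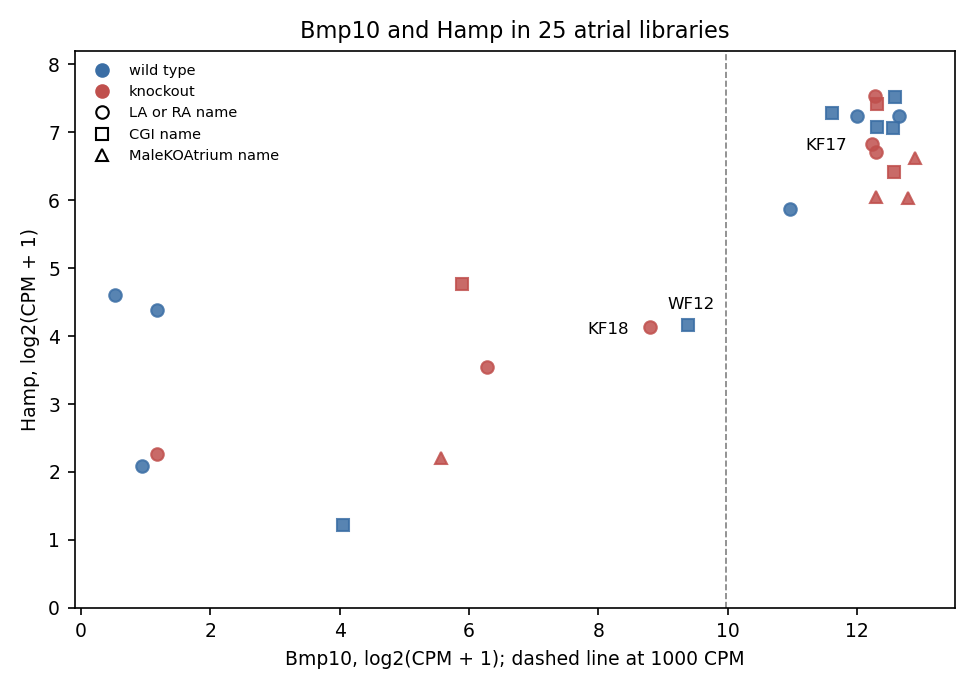
Bmp10 (horizontal) against Hamp (vertical), both as log2(CPM + 1), in each of 25 libraries, with colour for genotype and shape for the set of library names. The 15 libraries right of 1000 CPM Bmp10 have Hamp of at least 57.7 CPM, and the 10 to its left have at most 26.3 CPM.

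The members had 3202655 to 8098602 reads on genes, and 7.74% to 12.6% of CPM came from mitochondrially encoded genes. Xist and Ddx3y matched the labelled sex in 15 of 15 members, with KM13 the lowest male at 85.8 CPM of Ddx3y. The library names form sets that do not cross genotype evenly: LA or RA names are carried by 3 wild-type and 3 knockout members, CGI names by 4 and 2, and MaleKOAtrium names by 0 and 3. The MaleKOAtrium names therefore hold 3 of the 4 knockout males and no wild type, and for these libraries genotype and name set cannot be told apart. The first principal component of the members carried 42.2% of the variance, with KM13, KF15 and WF8 at one end and KM03, KM07 and KM05 at the other. Myl2, the ventricular light chain, was at 2160 CPM in KM13, 3269 in KF15 and 2582 in WF8 against 10.8 to 246 CPM in KM03, KM05 and KM07. Malat1, a nuclear noncoding RNA, was at 201, 312 and 300 CPM against 687 to 4664 CPM in the same libraries.

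Of 14457 genes, 2 (0.0138%) passed limma's test at a Benjamini-Hochberg adjusted p under 0.05, which is what "called" means below: Pam was lower and Ppip5k2 higher in knockouts. The fit had terms for genotype and sex on log2(CPM + 1), and all log2 differences are knockout minus wild type with the standard error (SE) of limma. Without adjustment 985 genes (6.81%) were under 0.05, 494 higher (3.42%) and 491 lower (3.4%). The median difference over all genes was 0.04. edgeR's quasi-likelihood test on the recovered reads also called 2 genes, and DESeq2 called 20. Leaving out 1 library at a time gave 2 to 5 called genes. Without KM13 and KF15, a choice made after seeing the data, 1366 genes were called, 1231 higher and 135 lower, and 326 when WF8 was left out as well. Pam and Ppip5k2 had the smallest p in both of these fits.

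Pam was at 3769 to 6245 CPM in wild-type libraries, with a median of 5717, and at 383 to 520 CPM in knockouts, with a median of 438. The lowest wild-type library lay far above the highest knockout. The means were 5325 ± 998 CPM (SD, n = 7) and 441 ± 42.0 CPM (SD, n = 8), and Pam fell by 3.57 on the log2 scale (SE 0.13, limma adjusted p = 1.36e-11). An exact two-sided permutation test of the log2 levels gave p = 0.000155, the smallest that 6435 splits allow. The fall was 3.51 in females and 3.62 in males, an 11.4-fold and a 12.3-fold difference. Knockouts kept 0.0841 of the wild-type level on that scale, and which exons these reads come from was not analysed here.

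Ppip5k2 was the only called gene that rose. It encodes a bifunctional kinase and phosphatase of inositol pyrophosphates, the diphosphoinositol messengers linked to phosphate and energy balance. In wild-type males it was at 166, 261, 230 and 253 CPM and in knockout males at 376, 628, 574 and 452 CPM. In females the levels were 234, 190 and 155 CPM against 356, 435, 626 and 635 CPM. All 8 knockouts lay above all 7 wild types. The mean rose from 213 ± 42.2 CPM (SD, n = 7) to 510 ± 118 CPM (SD, n = 8). It rose by 1.26 on the log2 scale (SE 0.16, limma adjusted p = 0.00339). The groups also did not overlap within the LA and RA names or within the CGI names. With LA and RA names alone the difference was 0.99 and no longer passed (limma adjusted p = 0.833), and without the MaleKOAtrium names it was 1.18 (adjusted p = 0.283). With the name set as a term it still passed. DESeq2 gave 1.22 (adjusted p = 1.6e-12) and edgeR an adjusted p of 0.00254.

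Ppip5k2 is a neighbour of the targeted gene. On GRCm38 (GENCODE M21) Pam spans chr1:97795114-98095646 on the minus strand and Ppip5k2 spans chr1:97706048-97770411 on the same strand, 24.7 kb beyond the end of Pam. Gin1, a gene related to retrotransposon integrases, lies between them at chr1:97770172-97793709 on the plus strand and overlaps the start of Ppip5k2 by 240 bases. Within 1 Mb of Pam, 4 other genes were measured. Gin1 was at 10.5 to 19.3 CPM in wild types and 11.7 to 20.9 CPM in knockouts, with nearly the same range in both (log2 0.13, SE 0.15, limma adjusted p = 0.827). D1Ertd622e, on the far side of Ppip5k2, had a difference of 0.32 (adjusted p = 0.727). The noncoding transcript B230216N24Rik, whose locus lies within that of Pam on the same strand, had 0.626 to 3.23 CPM in wild types and 1.11 to 21.1 CPM in knockouts, ranges that overlap (log2 0.997, SE 0.38, limma adjusted p = 0.713). The protocol is stranded, but the sources used here do not give the strand setting of the counting, so reads of Gin1 and Ppip5k2 in their overlap may not be told apart.

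In the 10 libraries with low Bmp10, Ppip5k2 was at 135, 180, 329, 300 and 224 CPM in wild types and at 64.9, 462, 530, 523 and 476 CPM in knockouts. The low value is KM01, a shallow library of 2494461 reads with 18.6% of CPM from mitochondrially encoded genes. The other 4 knockouts lay above all 5 wild types. The difference there was 0.41 with KM01 (limma adjusted p = 0.677) and 1.15 without it (SE 0.26, adjusted p = 0.407). The knockout effect on Ppip5k2 was not shown to differ between Bmp10-high and Bmp10-low libraries, with a difference of 0.81 with KM01 (limma adjusted p = 0.712) and of 0.09 without it (adjusted p = 0.98). In the authors' deposited table, which compares all libraries, the log2 ratio of wild type over knockout was -1.09 for Ppip5k2 and 3.49 for Pam.

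**Figure D2:**
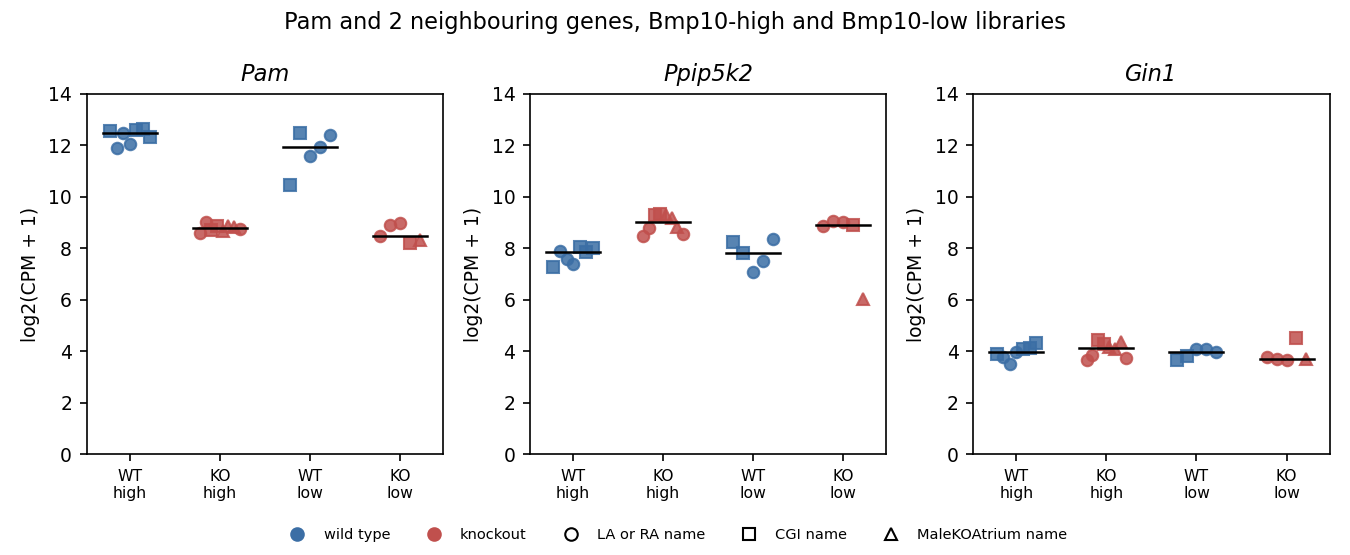
Pam, Ppip5k2 and Gin1 as log2(CPM + 1) in each library, for wild type (WT) and knockout (KO) with Bmp10 of at least 1000 CPM (high) or less (low), with the median as a line. Pam is lower in all knockouts, Ppip5k2 is higher in all but KM01 (64.9 CPM), and Gin1 overlaps.

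Besides Pam and Ppip5k2, 6 genes did not overlap between the genotypes, chosen after their values were seen. Of all genes, 3 (0.0208%) had all knockouts above all wild types and 5 (0.0346%) had all below. Ypel3, a gene linked to growth arrest, was at 54.7 to 65.6 CPM in wild types and 71.1 to 89.9 CPM in knockouts (log2 0.37, SE 0.09, limma adjusted p = 0.442). Asf1b, a histone chaperone gene, was at 1.31 to 2.19 CPM against 2.36 to 5.93 CPM. The genes that lay lower throughout were those of the tetraspanin Cd9, the lipid phosphatase Plpp1, the UDP-glucose dehydrogenase Ugdh and the growth-arrest gene Gas1. Ugdh makes the sugar nucleotide for hyaluronan and was at 65.7 to 81.2 CPM against 43.6 to 65.3 CPM, so the ranges nearly touch. Gas1 was at 59.4 to 85.7 CPM against 42.2 to 58.8 CPM. All 6 differences were smaller than 0.6 on the log2 scale, and none was called by limma, with adjusted p from 0.442 for Ypel3 to 0.697 for Cd9. DESeq2 called Ugdh (adjusted p = 3.93e-05) and Gas1 (0.0479). In the Bmp10-low libraries the differences were 0.35 for Ugdh and 0.13 for Gas1, on the other side of 0. There WF10, a shallow library with 30.4% of CPM from mitochondrially encoded genes, was the lowest wild type for both, at 23.6 and 18.2 CPM. KM01 was at 84.2 CPM of Ugdh, the highest of those knockouts, and at 16.4 CPM of Gas1, the lowest.

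Of the genes nearest to a call, Spon2 encodes a secreted matrix protein. It was at 12.4 to 65.6 CPM in wild types, with a median of 25.6, and at 3.19 to 13.1 CPM in knockouts, with a median of 8.16. The wild-type female WF8, at 12.4 CPM, lay below the knockout KF17, and the other wild types lay above all knockouts. The log2 difference was -1.77 (SE 0.33, limma adjusted p = 0.244), and DESeq2 called it (-2.11, adjusted p = 3.77e-06). Usp2, a deubiquitinase gene with a daily rhythm in many tissues, had a median of 33.5 CPM in wild types and 53.4 CPM in knockouts (0.82, SE 0.17, limma adjusted p = 0.377), with WM4 above 3 of the knockouts. Arxes2, a gene expressed in fat and downstream of PPAR-gamma, was at 5.64 to 13.6 CPM against 3.12 to 6.64 CPM (-0.89, SE 0.19, adjusted p = 0.377). These ranges overlap.

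Several genes of the epicardium fell in knockout males, and none was called in females. The epicardium is the mesothelial sheet that covers the heart, and it is marked by keratins, uroplakins and the transcription factors Wt1 and Tbx18. Of 20 listed epicardial and mesothelial genes, 0 were called over both sexes, while 14 were lower and 0 higher at an unadjusted p under 0.05, against 3.4% and 3.42% of all genes. The list median was -0.56, with 19 members below 0, beside 6104 of all 14457 genes. In males 3 members were called lower, beside 0.104% of all genes, and 15 were lower under 0.05, beside 6.54%, with a median of -0.93. In females 0 were under 0.05 in either direction, beside 0.706% of all genes higher and 0.623% lower, and the median was -0.12. In bulk tissue, fewer epicardial cells and less of these RNAs per cell cannot be told apart.

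Lrrn4, a mesothelial surface protein gene, was at 130, 95.1, 79.8 and 101 CPM in wild-type males and at 49.8, 29.0, 26.1 and 25.6 CPM in knockout males. These groups did not overlap, and Lrrn4 fell by 1.64 on the log2 scale (SE 0.24, limma adjusted p = 0.0121). In females it was at 82.1, 53.7 and 57.2 CPM against 44.0, 58.1, 75.4 and 76.6 CPM, which overlap (-0.03). Krt8, a simple-epithelial keratin gene, was at 31.7, 25.9, 36.0 and 24.5 CPM in wild-type males and at 18.9, 6.24, 5.58 and 8.40 CPM in knockout males. It fell by 1.64 (SE 0.27, adjusted p = 0.0253), and every knockout male lay below every wild-type male. Female Krt8 was at 21.7, 20.7 and 17.9 CPM against 12.7, 12.4, 16.3 and 16.3 CPM, again without overlap but smaller (-0.46, adjusted p = 1). Bnc1, a transcription factor gene of mesothelium and the third called member, fell by 1.16 in males (adjusted p = 0.0298).

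Other called genes of males were Aqp1, Smpd3, Capn6, Lum, Cdh3, Wwc1, Spon2, Arl4a, Fmod, C3 and Gng4, all lower. With Pam, Lrrn4, Krt8 and Bnc1 these are 15 lower genes, and Ciart was the 1 higher gene, 16 in all (0.111%). Without adjustment 1804 genes (12.5%) were under 0.05 in males, and edgeR called 20. Aqp1, a water channel of endothelium and mesothelium, was at 457, 382, 411 and 429 CPM in wild-type males and 271, 127, 149 and 152 CPM in knockout males. It fell by 1.32 (SE 0.19, limma adjusted p = 0.0121) with no overlap. Lum and Fmod encode small proteoglycans that bind collagen, and fell by 0.96 and 1.13. C3, the central complement component, fell by 1.28 (adjusted p = 0.0298). The male count depended on single libraries: it was 1 without WM5 or KM05, 2 without WM6, 3 without KM07, 6 without KM03 and 248 without KM13.

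The name sets moved with these genes. The summed level of the 20 epicardial genes was 749 to 777 CPM in the 3 MaleKOAtrium libraries and 1592 CPM in KM13, the other knockout male, against 1603 to 2069 CPM in wild-type males. In females it was 1091 to 1487 CPM in wild types and 1009 to 1382 CPM in knockouts, which overlap. Upk3b, the uroplakin gene, was at 396 CPM in KM13, within the 345 to 493 CPM of wild-type males, and at 111 to 124 CPM in the other knockout males. Krt8 and Lrrn4 in KM13 lay below all wild-type males. Without the MaleKOAtrium names 3 of the 20 were under 0.05 and lower, with a median of -0.20, beside 397 of all 14457 genes. With LA and RA names alone 10 of the 20 were, with a median of -0.47, beside 498 of all genes. With CGI names alone the median was 0.25, but there the only wild-type female was WF11 and no knockout male was present. Without KM13 and KF15 10 of the 20 were called lower, beside 135 of all genes. None of the 20 was at 0 in every library of a group.

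**Figure D3:**
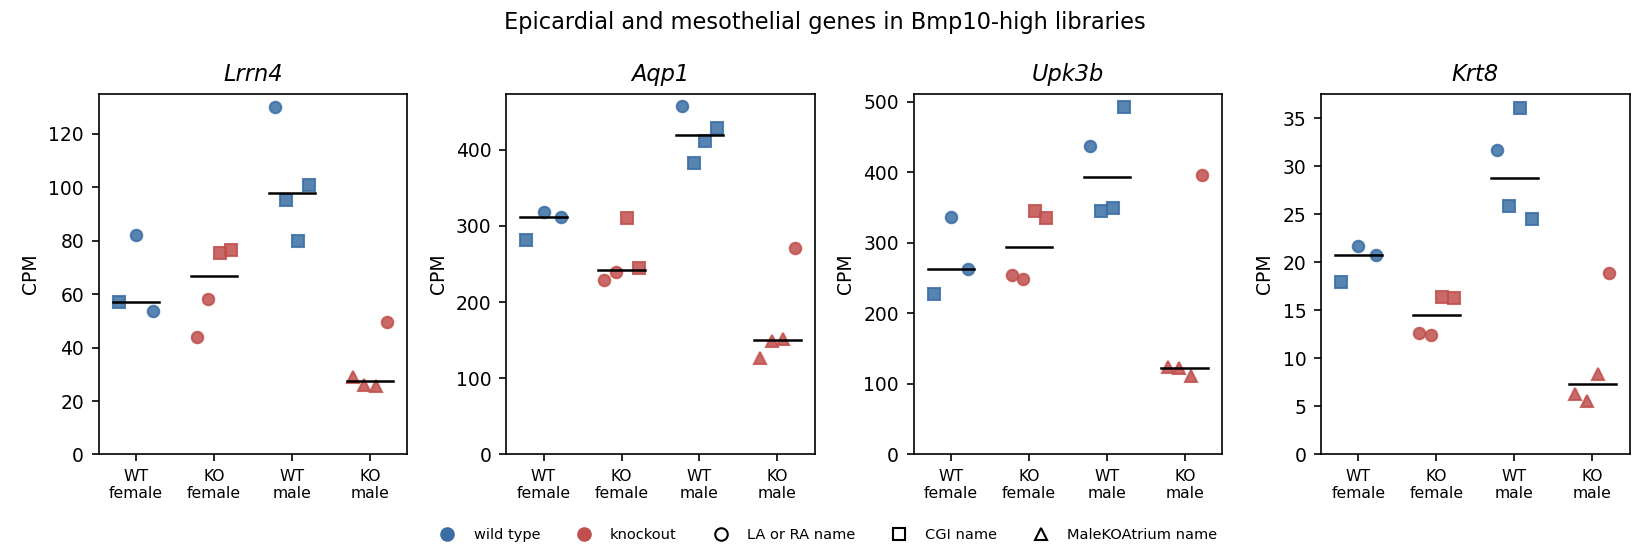
Lrrn4, Aqp1, Upk3b and Krt8 in CPM in each Bmp10-high library, by sex and genotype (WT wild type, KO knockout), with the median as a line and the shape for the name set. Males with MaleKOAtrium names lie lowest for all 4 genes, and Upk3b in KM13 (396 CPM) lies among the wild-type males.

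The difference between the sexes in the knockout effect was called for 0 genes of 14457, with 750 (5.19%) at an unadjusted p under 0.05, 2.27% of all genes with the larger value in females and 2.92% with the smaller, and edgeR also called 0, with 790 under 0.05. For Lrrn4 the female effect minus the male effect was 1.61 (limma adjusted p = 0.455), for Smpd3 1.26 (0.455) and for Krt8 1.18 (0.937). Without KM13 9 genes were called, among them Upk3b, Lrrn4, Msln, Aqp1 and Krt8. In females alone Pam was the 1 called gene (0.00692%), with 192 (1.33%) under 0.05 before adjustment, and edgeR called the same number. Ppip5k2 had a difference of 1.38 in females (adjusted p = 0.22) and 1.15 in males (adjusted p = 0.0552).

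No gene of the circadian clock was called over both sexes, and Ciart rose in males. In the clock, Clock and Arntl (Bmal1) activate the Per, Cry, Nr1d and Ciart genes and the output factors Dbp, Tef and Hlf, largely through E-boxes, and the Per and Cry proteins shut the activators off. Of 19 clock genes 0 were called, 9 were higher and 2 lower at an unadjusted p under 0.05, against 3.42% and 3.4% of all genes, and the list median was 0.36. The higher ones were Per1, Per2, Per3, Cry2, Dbp, Tef, Hlf, Bhlhe41 and Ciart, all on the output or repressor side. The lower ones were the activators Arntl and Clock. Nr1d1 and Nr1d2, repressors of Arntl, were under 0.05 in neither direction. Nr1d1 was at 19.4 CPM in WF11, 70.4 to 127 CPM in the other wild types and 61.3 to 125 CPM in knockouts. For Nr1d2 the levels were 67.2 CPM, 274 to 407 CPM and 216 to 425 CPM. Dissection times are not given in the sources used here.

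E-boxes of the letters CACGTG stand just before RefSeq starts of Ciart and Per1, and these stretches are shown because they carry the motif of the group. Ciart is the clock gene of smallest p, and its stretch lies outside the annotated gene. The Per1 stretch precedes the first of 2 RefSeq starts in the table, which is an internal one: it lies within the gene as GENCODE M21 gives it, chr11:69095217-69109960 on the plus strand. The sequences are from RefSeq (GRCm38.p6), read 5′ to 3′ on the strand of the gene, with each CACGTG in capitals. The motif is its own reverse complement, so 1 search covers both strands. The stretches lie at chr3:95882252-95882478 on the minus strand and at chr11:69098699-69098947 on the plus strand, and neither overlaps an annotated exon.
Ciart: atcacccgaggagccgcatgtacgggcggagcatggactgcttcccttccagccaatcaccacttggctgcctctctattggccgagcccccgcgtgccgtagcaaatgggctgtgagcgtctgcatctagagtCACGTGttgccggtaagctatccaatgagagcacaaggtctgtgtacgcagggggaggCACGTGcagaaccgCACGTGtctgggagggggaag
Per1: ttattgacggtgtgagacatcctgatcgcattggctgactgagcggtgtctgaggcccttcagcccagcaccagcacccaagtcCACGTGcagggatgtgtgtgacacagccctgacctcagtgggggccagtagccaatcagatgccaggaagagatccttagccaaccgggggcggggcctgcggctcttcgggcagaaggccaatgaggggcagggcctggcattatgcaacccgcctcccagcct
The Ciart stretch of 227 bases holds 3 such motifs and the Per1 stretch of 249 bases holds 1. Of 32851 promoters in the table, 5.23% hold at least 1 in a window of 227 bases and 6.0% in one of 249 bases. A match is a description of the letters and not a measured binding site.

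Ciart, a repressor of Clock and Arntl, was at 8.59, 4.27, 3.23 and 6.79 CPM in wild-type males and at 19.1, 24.7, 21.3 and 17.3 CPM in knockout males. It rose in males by 1.75 on the log2 scale with no overlap (SE 0.30, limma adjusted p = 0.0298). In females the levels of 8.13, 10.5 and 3.26 CPM against 10.7, 8.36, 12.4 and 14.2 CPM overlap (0.68, adjusted p = 1). Over both sexes the difference was 1.25 (SE 0.25, adjusted p = 0.345), and DESeq2 called it (adjusted p = 0.0411).

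Per1 was at 8.01 to 62.7 CPM in wild types and 27.8 to 120 CPM in knockouts (log2 1.35, SE 0.40, limma adjusted p = 0.679). Per3 was at 10.3 to 68.0 CPM against 35.5 to 200 CPM (1.17, adjusted p = 0.679). Among wild types WM4, WF8, WF9 and WM7 were within the knockout range for Per1, and WM4, WM5, WM7 and WF9 for Per3, so libraries of both LA or RA and CGI names overlap. Dbp, the output factor, was at 6.38 CPM in WF11 and at 51.2 to 105 CPM in 6 more wild types, against 93.0 to 122 CPM in all knockouts (0.98, adjusted p = 0.713). Arntl moved the other way, at 63.3 CPM in WF11, 7.01 to 23.9 CPM in the rest of that genotype and 2.04 to 11.8 CPM in knockouts (-1.15, adjusted p = 0.699). WF11 thus had the lowest Dbp and the highest Arntl of all members.

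With LA and RA names alone 0 of 19 clock genes were under 0.05 in either direction, beside 192 higher and 498 lower of all 14457 genes. In that fit, from 3 wild types and 3 knockouts, 15 clock genes lay below 0, beside 8382 of all genes. The list median was -0.18, beside -0.06 for all genes. There Per1 differed by -0.06, Per2 by -0.21 and Per3 by -0.10. With CGI names alone the median was 1.46, in a fit where WF11 was the only wild-type female and no knockout male was present. Without WF11 10 were higher and 2 lower at an unadjusted p under 0.05, beside 558 and 425 of all 14457 genes. Without KM13 and KF15 7 clock genes were called higher, beside 1231 of all genes. In the Bmp10-low libraries the list median was 0.61, with 0 called and 7 higher and 2 lower under 0.05, beside 9.43% and 3.86% of all genes. Both wild-type females there stood apart from the wild-type males, with Dbp at 3.12 CPM in WF10 and 11.5 CPM in WF12 against 50.9 to 65.2 CPM. Arntl was at 30.7 and 53.3 CPM in these females against 8.90 to 11.6 CPM in the males. The Dbp difference in Bmp10-low libraries was 1.64, and 0.91 without WF10. That library is shallow, with 2246887 reads and 30.4% of CPM from mitochondrially encoded genes.

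**Figure D4:**
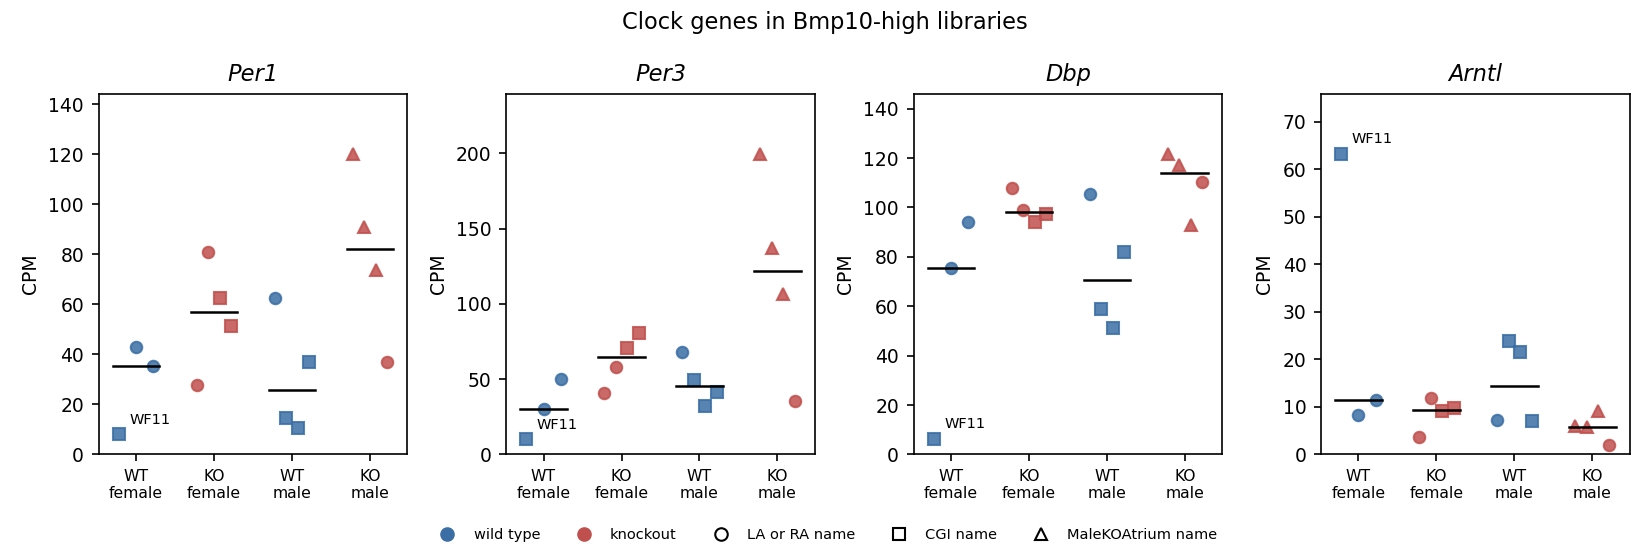
Per1, Per3, Dbp and Arntl in CPM in each Bmp10-high library, by sex and genotype (WT wild type, KO knockout), with the median as a line and the shape for the name set. WF11 has the lowest Per1 (8.01 CPM), Per3 (10.3 CPM) and Dbp (6.38 CPM) and the highest Arntl (63.3 CPM).

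Targets of the glucocorticoid receptor were also counted, since adrenal steroids drive several clock genes. Of 19 genes 0 were called, with a median of 0.34. At an unadjusted p under 0.05, 6 were higher and 1 lower, beside 3.42% and 3.4% of all genes. The 6 were Per1, also a clock gene, the transcription factor genes Zbtb16, Hif3a, Klf15 and Cebpd, and Tsc22d3, which encodes the anti-inflammatory protein GILZ. Zbtb16 was at 4.07 to 88.9 CPM in wild types and 16.7 to 167 CPM in knockouts (SE of the log2 difference 0.53, limma adjusted p = 0.699), and Tsc22d3 differed by 0.62 (adjusted p = 0.713). The lower gene was Cdkn1a, the cell cycle inhibitor p21, at 14.9 to 37.7 CPM in wild types and 8.97 to 21.5 CPM in knockouts (-0.63, SE 0.18, adjusted p = 0.679). Nr3c1, the receptor itself, differed by -0.10. With LA and RA names alone 0 were higher under 0.05 and the list median was -0.13.

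Tyrp1, Pmel and Dct, genes of pigment cells, lay higher in most knockout libraries, at low levels and without a call by limma. Melanocytes are present in the atrial septum, the valves and the base of the great veins of pigmented mice. Tyrp1 and Pmel, a melanin enzyme and the fibril protein of melanosomes, were among the 5 genes of smallest p on the higher side. Dct, which encodes dopachrome tautomerase, was added after its values were seen. Dct was at 0.561 to 9.91 CPM in wild types, with a median of 6.61, and at 6.64 to 23.3 CPM in knockouts. KF21, at 6.64 CPM, was the 1 knockout within the wild-type range. The difference was 1.55 (SE 0.36, limma adjusted p = 0.442). Tyrp1 was at 0 to 2.17 CPM against 1.76 to 8.38 CPM (1.48, SE 0.31, adjusted p = 0.377), with 0 to 43 reads per library. Pmel was at 0.156 to 2.58 CPM against 1.08 to 4.64 CPM (1.21, SE 0.26, adjusted p = 0.377). DESeq2 called Tyrp1 (adjusted p = 0.0232) and Dct (0.0479), not Pmel (0.0546).

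Within the LA and RA names the 3 knockouts lay above the 3 wild types for all 3 pigment genes, while within the CGI names the genotypes overlapped for each. With CGI names alone the differences were -0.04 for Dct, -0.16 for Tyrp1 and -0.50 for Pmel. In that fit WF11 was the only wild-type female and no knockout male was present, so these values rest on WF11. Among wild-type members WF11 was the highest for all 3 genes, at 9.91 CPM of Dct, 2.17 of Tyrp1 and 2.58 of Pmel. In the 10 Bmp10-low libraries Dct was at 0.465 to 2.11 CPM, and its difference there had a limma adjusted p of 1. The knockout effect was larger by 1.55 for Dct and by 1.39 for Tyrp1 in Bmp10-high than in Bmp10-low libraries, and neither difference was called (adjusted p = 0.689 for both). Both genes lie near the floor of 3 reads in the Bmp10-low libraries, which limits what an effect there can show. Dct was at 0.465 CPM in WM3, where the floor is 0.697 CPM, and Tyrp1 was at 0 CPM in WM3, WF10, KM01 and KF16. Mitf, the master regulator of melanocytes that the heart muscle also expresses, differed by 0.07 among the members (limma adjusted p = 0.9), and Mlana by -0.06 (adjusted p = 0.939).

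The stretch upstream of Dct is shown because it holds 2 motifs of the letters CATGTG, the kind bound by Mitf. It is from RefSeq (GRCm38.p6), chr14:118052247-118052496 on the minus strand, read 5′ to 3′ on the strand of the gene, with CATGTG and its reverse complement CACATG in capitals.
Dct: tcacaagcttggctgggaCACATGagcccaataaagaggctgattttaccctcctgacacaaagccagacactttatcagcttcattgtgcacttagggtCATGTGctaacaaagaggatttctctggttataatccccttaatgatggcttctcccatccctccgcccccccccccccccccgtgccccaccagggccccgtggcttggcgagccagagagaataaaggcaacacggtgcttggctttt
Either form is held by 12.3% of the promoters, read in a window of 250 bases, so the motif alone is common. Again, a match is a description of the letters.

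**Figure D5:**
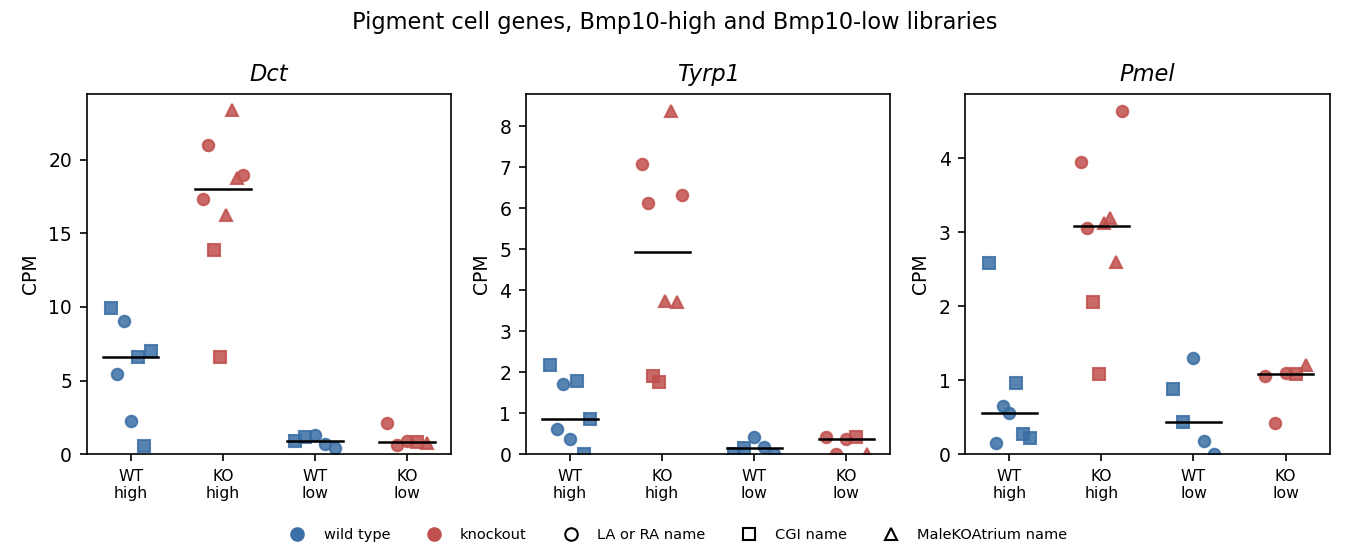
Dct, Tyrp1 and Pmel in CPM in each library, for wild type (WT) and knockout (KO) with Bmp10 of at least 1000 CPM (high) or less (low), with the median as a line. Dct is at 6.64 to 23.3 CPM in Bmp10-high knockouts, 0.561 to 9.91 CPM in Bmp10-high wild types and at most 2.11 CPM in the Bmp10-low libraries.

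The genes closest to the function of Pam showed no called change besides Pam. Of 20 atrial peptides and receptors 0 were called. At an unadjusted p under 0.05, 2 were higher and 3 lower, beside 3.42% and 3.4% of all genes. Nppa, which encodes the precursor of atrial natriuretic peptide, the main cargo of the granules, was at 966 to 1290 CPM in wild types and 863 to 1864 CPM in knockouts. The knockouts spanned the whole wild-type range (0.25, SE 0.15, limma adjusted p = 0.753). Corin, which encodes the protease that cleaves pro-atrial natriuretic peptide, differed by 0.32 (adjusted p = 0.713). Apln, the apelin gene, was at 1.68 to 5.63 CPM against 2.04 to 20.3 CPM, with the 3 MaleKOAtrium libraries at 12.2 to 20.3 CPM and KM13 at 2.97 CPM (0.97, adjusted p = 0.713). Ramp3 and Calcrl, which encode subunits of adrenomedullin receptors, differed by -0.54 and -0.50, and Ednrb, an endothelin receptor gene, by -0.49.

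Only 5 of 35 precursors of amidated peptides were measured, and 0 were under 0.05. Adm, the adrenomedullin precursor gene, was the most abundant, at 74.1 CPM in wild types and 72.3 CPM in knockouts (0.03, SE 0.20, limma adjusted p = 0.97). Of 21 prohormone processing and granule genes Pam was the 1 called. Cpm, Rab3a and Pcsk4 were higher under 0.05 before adjustment, beside 3.42% of all genes. Cpe, the main carboxypeptidase acting before Pam in the pathway, was at 510 and 475 CPM (-0.12). Of 27 copper handling genes 1 was under 0.05 and lower, Loxl1 (-0.28), beside 3.4% of all genes. Of 15 genes for cytosolic partners of PAM and adaptors 1 was, Rassf9 (-0.46, adjusted p = 0.713), whose product binds the cytosolic tail of PAM. Kalrn, which encodes another binding partner, differed by 0.34.

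Among myocyte genes 0 were called. Of 20 sarcomere genes 19 had differences above 0, with a median of 0.20 and 0 under 0.05, beside 57.8% of all genes above 0. Without KM13 14 lay above 0, with a median of 0.07, beside 8773 of all 14457 genes above 0. Tpm2, a tropomyosin gene, differed by 0.45 (limma adjusted p = 0.727). Of 21 calcium handling genes 0 were higher and 1 lower under 0.05, beside 3.42% and 3.4% of all genes. The lower gene was Trdn (-0.43, SE 0.15, limma adjusted p = 0.699). It encodes triadin, which anchors calsequestrin to the calcium release channel. Of 21 potassium channel genes 3 were higher and 1 lower under 0.05, beside 3.42% and 3.4% of all genes. Kcna5, the gene of the ultrarapid atrial current, differed by 0.42 and Abcc9, the sulfonylurea receptor gene, by 0.46. Chrm2, the muscarinic receptor gene through which the vagus slows the atrium, was at 329 to 495 CPM against 394 to 615 CPM (0.38, SE 0.13, adjusted p = 0.697). Of 14 sinoatrial node genes 1 was higher and 2 lower under 0.05, beside 3.42% and 3.4% of all genes. The lower ones were Igfbp5 and the epicardial Tbx18. Igfbp5 was at 761 to 1433 CPM against 448 to 843 CPM (-0.51, SE 0.15, adjusted p = 0.679).

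Stress genes were not called either. Of 23 cardiac stress genes 0 were called and 3 were higher under 0.05, beside 3.42% of all genes. Hspb7, a small heat shock protein gene of muscle, was at 424 to 675 CPM in wild types and 521 to 960 CPM in knockouts (0.35, SE 0.15, limma adjusted p = 0.713). Its levels were 845, 792, 960 and 923 CPM in knockout males against 424 to 638 CPM in wild-type males, without overlap, while the females overlap. Hmox1, the heme oxygenase gene, differed by 0.51 (adjusted p = 0.713). The endoplasmic reticulum, where PAM itself is made, was covered by 26 genes of folding. Of these 1 was higher and 4 lower under 0.05, beside 3.42% and 3.4% of all genes. Herpud1, a gene of protein degradation there, differed by 0.53, and the chaperone genes Hsp90b1, Pdia6, Dnajc3 and Sdf2l1 by -0.21 to -0.37. Of 20 heat shock genes 1 was higher and 3 lower under 0.05, beside 3.42% and 3.4% of all genes, and the list median was 0. Dnaja1 (-0.43) and Hsp90aa1 (-0.33) were among the lower ones. Of 21 cell cycle genes 3 were higher and 0 lower under 0.05, beside the same shares of all genes. They were Rrm2, Tk1 and Mcm5 (0.39 to 0.54).

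Markers of other cells in the sample were compared in the same way. Of 11 erythroid genes 0 were under 0.05 over both sexes, and 11 lay above 0 with a median of 0.75, beside 57.8% of all genes above 0. In males 8 were higher under 0.05 (median 1.83), beside 5.93% of all genes, and in females 0 were (median -0.34). The direction turned with CGI names alone, where the median was -1.74. In that fit WF11 was the only wild-type female and no knockout male was present. Fitted with a name-set term, the median was -0.008. Without WF11 7 were higher under 0.05 (median 1.14), beside 558 of all 14457 genes. Their summed level was 2370 to 2937 CPM in knockout males and 580 to 2140 CPM in wild-type males, without overlap, and 659 to 2369 CPM against 643 to 2184 CPM in females. The adipocyte list summed to 826 to 2862 CPM in wild types and 942 to 2532 CPM in knockouts, and the ventricular list to 3686 to 9030 CPM and 3249 to 10793 CPM, which overlap. Of 16 B cell and antigen presentation genes, 21 macrophage genes, 8 T and NK cell genes and 23 interferon-stimulated genes, 0 were under 0.05 over both sexes. In males, in which 3 epicardial genes fell, 6 B cell, 4 macrophage and 2 T and NK cell genes were higher under 0.05, beside 5.93% of all genes, and 0 of these were called. With CGI names alone, again with WF11 as the only wild-type female, the median of the B cell genes was -0.73. Of 25 fibroblast genes 1 was higher and 2 lower under 0.05, beside 3.42% and 3.4% of all genes. The lower ones were Lum (-0.58, limma adjusted p = 0.47) and Dcn (-0.27). None of the lung and airway genes was measured. The part of blood and immune cells in the results for males was not tested.

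Across the whole table the knockout effect was not shown to differ between the Bmp10-high and the Bmp10-low libraries for any gene, with 0 of 14457 called by limma or edgeR and 1032 (7.14%) under 0.05 before adjustment with limma and 1228 with edgeR. Under 0.05 with limma, 2.45% of all genes had a higher knockout minus wild-type difference in Bmp10-high than in Bmp10-low libraries. A lower one was found for 4.69%. In the Bmp10-low libraries Pam was the 1 called gene (0.00692%), at -3.16, with 1922 (13.3%) under 0.05 before adjustment. The epicardial list had a median of -0.01 there, beside -0.56 among the members. For Lrrn4 the effect was -0.90 in Bmp10-high and -0.30 in Bmp10-low libraries, and the tested difference between them was -0.59 (limma adjusted p = 0.854). Single libraries turned these values: the Bmp10-low effect was 0.33 without KM01 and -0.95 without WF10, and the difference was -1.19 without KM01 (adjusted p = 0.905). Only 1 knockout male, KM01, has low Bmp10, and the effects there rest on 5 wild-type and 5 knockout libraries.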

How the data were processed

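RNA was sequenced by the submitters from single atria with stranded TruSeq libraries, paired 75-base reads and 1 NextSeq run, per the labels' protocols. HISAT2, HTSeq, DESeq2 and the mm10 build are named in the submitters' processing notes, without versions or settings. The deposited values are CPM made by the authors, although the header calls them FPKM: each library has its own smallest step, and 100% of values were whole multiples of it (within 0.001 reads), so whole reads and depth were recovered from them. The deposited table also holds the authors' log2 ratio of wild type over knockout and a p-value of DESeq2 made by the authors, whose adjustment is not stated. The unit differed from the FPKM first assumed. The table lists 14467 lines with a mean of at least 1.00 CPM. For 5 symbols listed more than once, 10 lines were removed, and 14457 genes remained. On those lines the 4 MaleKOAtrium columns held equal values for 5 of 5 symbols, which held for 0 in the remaining 21 columns. The sources used here do not say if 1 annotation served all counts.

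Libraries with Bmp10 of at least 1000 CPM were compared with limma 3.58.1 (R 4.3.3, trend, pseudocount 1) with terms for genotype and sex, and p-values were adjusted by Benjamini-Hochberg over all genes, with a threshold of 0.05. Contrasts within a sex and between sexes used the same libraries, and the contrast with Bmp10-low libraries used all 25. Whole reads were tested with edgeR 4.0.16 (quasi-likelihood) and DESeq2 1.42.0. The procedure was tested on simulated data. Named genes are Pam, Bmp10, the called genes and, since fewer than 5 were called per direction, those of smallest p up to 5, up to 4 called members or else the 2 of smallest p of each of 42 lists, and up to 6 called genes per direction of the other comparisons. Genes named beyond this were chosen after their values were seen. They include the neighbours of Pam, Dct, Mitf, Mlana, the other clock and pigment genes, and list members given as examples. The members and lists were chosen with earlier results of these data known. Floors of 3 reads cover counting error only. Coordinates are from GENCODE M21, where 99.1% of symbols were found. The replicate numbers shared by WM5 with KM05 and WM7 with KM07 were not used as pairs. Other settings tried were scaling, pseudocount, filter, weights, name set and single libraries.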

Additional observations from a re-analysis of the deposited data

Results flagged for a closer look

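Values that stood apart from the rest of their group by a gap test are given for 4 genes the text names. Chance passes this test in about 1 of 20 groups, and the number of groups examined is not given here. The list is not complete for the genes named above. For Nr1d2, WF11 was at 67.2 CPM and the other wild types at 274 to 407 CPM. WF11 stood apart among the 7 wild types for Tef, at 77.7 CPM, and for Dbp, at 6.38 CPM, both the lowest of the group. KF21 stood apart among the 8 knockouts for Dct, at 6.64 CPM, the lowest of the group. KF15 stood apart among the knockouts for Gas1, at 42.2 CPM, also the lowest. The values without WF11 are given with the clock genes, and what sets these libraries apart was not tested.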

How the results depend on the processing

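The count of 2 called genes held under both pseudocounts, TMM, median-ratio and quantile scaling, a mean of at least 5 CPM, edgeR, no sex term, the name set as a term and without KF17. It was 72 with array weights, 20 with DESeq2, 11 with CGI names alone, and 1 without the MaleKOAtrium names, with LA and RA names alone and with RA names alone. Of settings chosen after seeing the data, it was 1366 without KM13 and KF15, 326 without WF8 as well and 2 without WF11 and the MaleKOAtrium names, which were Pam and Ddx3y and not Ppip5k2. Leaving out each library gave 2 to 5 genes, 1 to 2 in females, 1 to 248 in males, 0 to 9 for the difference between sexes and 0 for that between Bmp10-high and Bmp10-low libraries, and a Pam difference of -3.65 to -3.53. In females the name set as a term gave 2 genes. In males median-ratio scaling gave 25 and the name set as a term 152, a fit that rests on KM13 as the only knockout male of its names. Pam differed by -3.35 in LA and RA names (exact permutation p = 0.10) and by -3.74 in CGI names (exact p = 0.0667), the smallest p these designs allow. With CGI names alone WF11 was the only wild-type female and no knockout male was present, so that fit compares WF11 with KF20 and KF21. There signs reversed for Tyrp1 (-0.16), Pmel (-0.50), Lrrn4 (0.40), Dct (-0.035), Dnaja1 (0.10) and Krt19 (0.016). They also reversed with LA and RA names alone for Per1 (-0.062), Per2 (-0.21), Per3 (-0.10) and Apln (-0.19), and with RA names alone for Per1 (-0.10), Per2 (-0.22), Per3 (-0.074) and Apln (-0.12). Here and in the count above, RA names alone took all RA-named libraries whatever their Bmp10. That fit held KF18, which is not a member, and not KF17. The cause of the changes of sign was not tested. A replicate block for the shared numbers gave 2 called genes. The deviations correlated by 0.118 for WM5 with KM05 and by -0.059 for WM7 with KM07, so the numbers were not treated as pairs. The depth of 3202655 reads in the shallowest member limits genes near 1 CPM.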
